A study of Danio rerio with 14 samples.

Results

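The 10 genes described here encode proteins of the contractile apparatus of zebrafish skeletal muscle and its energy supply. They are the fast myosin heavy chains myhz1.1, myhz1.2 and myhz2, the slow myosin heavy chain smyhc1, the fast regulatory light chains mylpfa and mylpfb, the fast troponins tnnt3b and tnni2a.4, the skeletal actin acta1b and the muscle creatine kinase ckma. They were chosen by gene symbol, each symbol matched 1 row of the deposited tables, and the tables list 36351 genes in all. All 10 passed the filter on low values, a mean of at least 10 normalized counts.

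Embryos of wild-type AB zebrafish were kept in treated water between 3 and 96 hours post fertilization (hpf), renewed every day. Boscalid, a fungicide that inhibits succinate dehydrogenase, and its metabolite M510F01 were each given at 0.03 µg/L, and controls received the solvent dimethyl sulfoxide (DMSO) at 0.01% by volume; the labels name DMSO for the controls only. Total RNA of whole larvae at 96 hpf was sequenced after removal of ribosomal RNA. Of 14 labelled samples, 12 had values, 4 per group; the fifth boscalid and the fifth M510F01 sample were not analysed here. No source used here gives the number of larvae behind a library, or says whether replicates came from separate clutches or tanks, so each p-value measures the spread between these libraries, which may be technical.

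A larval trunk is mostly muscle. In zebrafish, slow fibres lie as a superficial layer and fast fibres fill the deeper myotome. Each sarcomere holds thick filaments of myosin, whose heavy chains carry the motor and whose light chains stiffen its lever arm, and thin filaments of actin, on which troponin and tropomyosin switch contraction on with calcium. Creatine kinase passes phosphate from phosphocreatine to ADP and so buffers ATP during contraction. Succinate dehydrogenase, the enzyme that boscalid inhibits, belongs to the mitochondrial respiratory chain, on which slow fibres rely more than fast ones.

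Reads assigned to genes numbered 12893093 in the smallest and 17060350 in the largest library. The 10 genes took between 3.37% and 4.55% of these reads, with a mean of 4.05% ± 0.38 in DMSO, 4.08% ± 0.29 with boscalid and 3.89% ± 0.45 with M510F01 (SD, n = 4 each). The lowest value of any member in any library was 6824 normalized counts, so counting error was small beside the spread between libraries. Values below are normalized counts, reads divided by a size factor per library, with all 12 libraries on 1 scale. They are not divided by transcript length, so levels are compared between groups and not between genes. In RNA of whole larvae, fewer muscle cells and less RNA per muscle cell cannot be told apart.

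No member passed the test between boscalid and DMSO, between M510F01 and DMSO, or between the compounds. With limma and all libraries, 0 of 10 members passed an adjusted p of 0.05 in each comparison, and 0 of 10 had an unadjusted p under 0.05. Without M510F01 replicate 4, limma's unadjusted p was under 0.05 for acta1b against DMSO and for 3 members against boscalid, acta1b, mylpfb and tnni2a.4. Without boscalid replicate 1 it was so for tnni2a.4 in M510F01 against boscalid. With only replicates 1 and 2 it was so for acta1b in both M510F01 comparisons. With a replicate block it was so for mylpfb with boscalid and for tnni2a.4 in M510F01 against boscalid. With replicates 1 and 2 against 3 and 4 as a term it was so for tnni2a.4 in M510F01 against boscalid. None of these passed the adjusted threshold. The main limma fit called 0.0173% of all genes for boscalid against DMSO and 0% for M510F01 against DMSO. For M510F01 against boscalid it called 0.0130%. The shares with an unadjusted p under 0.05 were 7.68%, 3.61% and 4.60%. These shares depended on single libraries. For boscalid against DMSO the share fell to 3.93% when boscalid replicate 3 was left out and reached 16.5% when boscalid replicate 1 was. For M510F01 against DMSO it lay between 1.95% (DMSO replicate 4 left out) and 8.09% (DMSO replicate 3 left out). For M510F01 against boscalid it lay between 2.71% (boscalid replicate 3 left out) and 15% (boscalid replicate 1 left out). Run on recovered reads, edgeR and DESeq2 each called 0 members in every comparison, and 0 had an unadjusted p under 0.05. The 95% confidence intervals of all members in all 3 comparisons lay between -0.74 and 0.60 on the log2 scale, inside a 2-fold change either way. With 1 library left out, they lay between -0.85 (acta1b, M510F01 against DMSO without DMSO replicate 4) and 0.71 (mylpfb, boscalid against DMSO without DMSO replicate 3).

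**Figure D1:**
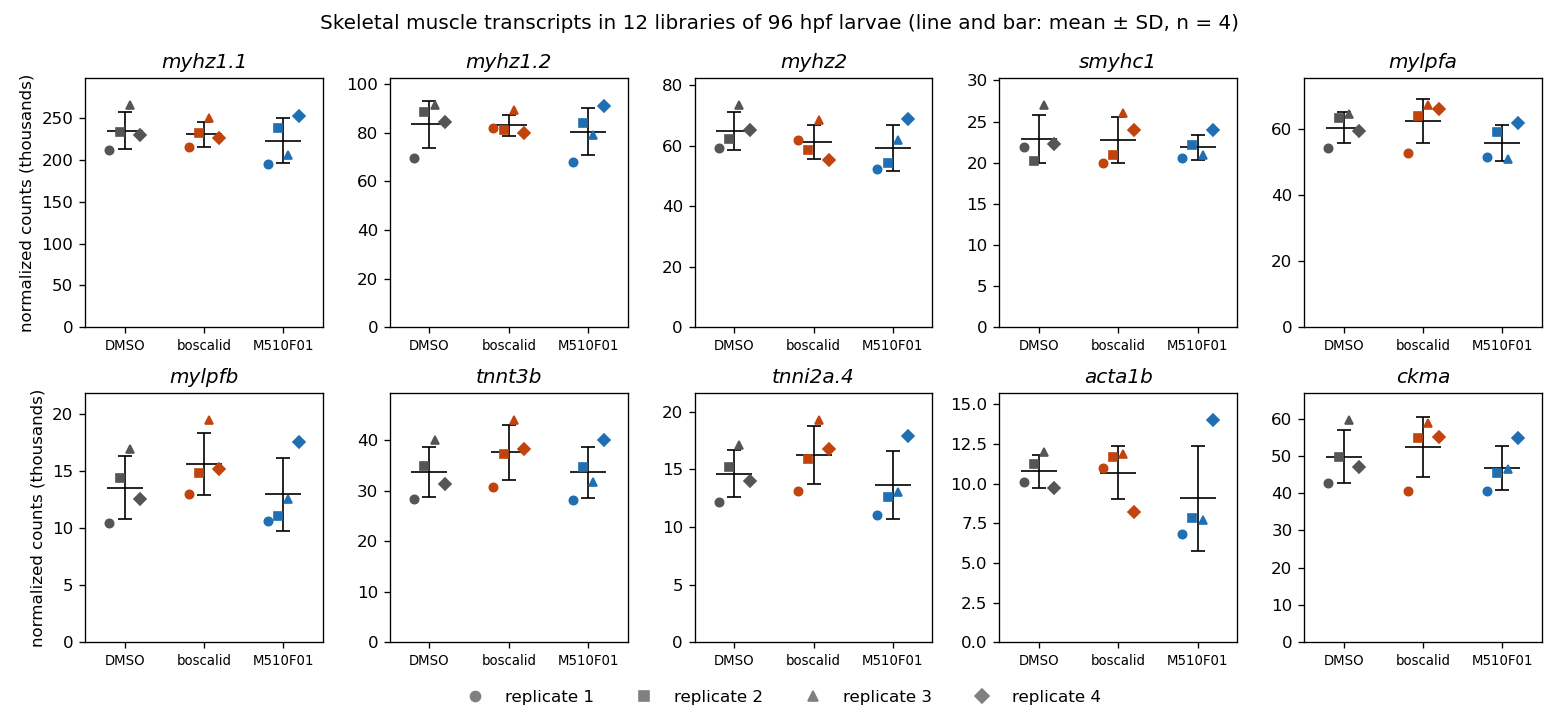
Normalized counts (vertical axes, scaled as labelled and starting at 0) of the 10 muscle genes in each library, by group; symbols give the replicate number, and horizontal lines with bars give mean ± SD (n = 4). The groups overlap for every gene, and replicate 3 of DMSO, replicate 3 of boscalid and replicate 4 of M510F01 are highest of their group throughout.

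Among the heavy chains, the motor proteins of the thick filament, myhz1.1 (LL0000040072) took the most reads. It was counted at 211567, 233279, 265528 and 229790 in DMSO replicates 1 to 4. It stood at 215211, 231626, 250608 and 225780 with boscalid and at 195366, 238641, 206360 and 251961 with M510F01. The 3 groups overlapped, with the lowest and the highest library differing 1.36-fold. The log2 fold change against DMSO was -0.02 for boscalid (SE 0.13, 95% interval -0.32 to 0.27, limma adjusted p = 0.959) and -0.08 for M510F01 (SE 0.14, -0.38 to 0.23, adjusted p = 0.9998).

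Its tandem neighbour myhz1.2 (LL0000019837), another fast heavy chain, was at 69644, 88389, 91421 and 84347 in DMSO. It was at 81914, 81128, 89446 and 80046 with boscalid, and at 67816, 84155, 79000 and 91111 with M510F01. The boscalid libraries were the closest together and lay within the DMSO range. Myhz2 (LL0000019839), a fast heavy chain of the same cluster, read 59100, 62099, 73441 and 65039 in DMSO. Its values were 61999, 58614, 68661 and 55387 with boscalid, and 52317, 54150, 61871 and 68902 with M510F01. Some boscalid and M510F01 libraries fell below the lowest DMSO library and others lay inside the DMSO range. Against DMSO the estimates for myhz2 were -0.09 for boscalid (interval -0.38 to 0.21) and -0.13 for M510F01 (-0.43 to 0.16), and those for myhz1.2 were 0.00 (-0.29 to 0.30) and -0.05 (-0.36 to 0.26).

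RefSeq places the 3 fast heavy chains in 1 cluster: in its table for GRCz12tu, myhz1.1 and myhz1.2 lie next to each other with 0 listed genes between them, and 3 further heavy chain genes, myhc4, myha and myhz1.3, stand between myhz1.2 and myhz2. These paralogues are close in sequence, so the division of reads among them is uncertain. The ratio of myhz1.2 to myhz1.1 reads ran from 0.329 to 0.379 in DMSO, from 0.350 to 0.381 with boscalid and from 0.347 to 0.383 with M510F01. Its range was thus shared by the groups.

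The slow heavy chain smyhc1 (LL0000029031), the motor of larval slow fibres, was counted at 21924, 20262, 27003 and 22214 in DMSO. It stood at 19967, 20886, 26082 and 23930 with boscalid and at 20563, 22149, 20914 and 23954 with M510F01. All M510F01 libraries lay within the DMSO range, and 1 boscalid library lay just below it. The estimates were -0.01 for boscalid (SE 0.14, interval -0.32 to 0.31, limma adjusted p = 0.988) and -0.06 for M510F01 (SE 0.12, -0.33 to 0.22, adjusted p = 0.9998). The ratio of smyhc1 to myhz2 reads, a slow gene over a fast gene, was 0.352 ± 0.0214 in DMSO, 0.373 ± 0.0462 with boscalid and 0.372 ± 0.0345 with M510F01 (SD, n = 4 each). The highest ratio, 0.432, was that of boscalid replicate 4, and the lowest, 0.322, that of boscalid replicate 1. The differences between the group means were smaller than the SD within either exposed group.

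The regulatory light chains bind the neck of the fast heavy chains. Mylpfa (LL0000019861) was at 54165, 63426, 64505 and 59498 in DMSO, at 52764, 63948, 67258 and 65931 with boscalid, and at 51490, 59049, 50878 and 61973 with M510F01. Its paralogue mylpfb (LL0000019862) was at 10432, 14380, 16900 and 12555 in DMSO, at 12995, 14836, 19478 and 15226 with boscalid, and at 10664, 11041, 12602 and 17583 with M510F01. The highest mylpfb value was a boscalid and the lowest a DMSO library, and the groups overlapped for both paralogues. Mylpfb had the largest positive estimate of any member, 0.21 for boscalid (SE 0.18, interval -0.18 to 0.60, limma adjusted p = 0.707), and mylpfa stood at 0.05 (-0.25 to 0.34). The mylpfb estimate was 0.09 without DMSO replicate 1 and 0.33 without DMSO replicate 3. With M510F01 the estimates were -0.07 for mylpfb (-0.48 to 0.34) and -0.11 for mylpfa (-0.39 to 0.16). Mylpfb reads were 0.223 ± 0.0295 of mylpfa reads in DMSO, 0.250 ± 0.0275 with boscalid and 0.231 ± 0.0431 with M510F01 (SD, n = 4 each).

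On the thin filament, tnnt3b (LL0000030781), the fast troponin T that anchors the complex to tropomyosin, was at 28376, 34801, 39907 and 31344 in DMSO. It was at 30754, 37232, 43920 and 38245 with boscalid, and at 28097, 34660, 31762 and 39999 with M510F01. The boscalid mean, 37538 ± 5396, was above the DMSO mean of 33607 ± 4953 by less than either SD. Tnni2a.4 (LL0000030767), a fast troponin I that holds back contraction at rest, was at 12218, 15175, 17117 and 14010 in DMSO. It was at 13166, 15938, 19286 and 16767 with boscalid and at 11011, 12613, 13060 and 17861 with M510F01. The ranges of the 3 groups overlapped over most of their width. The estimates for boscalid were 0.16 for tnnt3b (interval -0.18 to 0.51, limma adjusted p = 0.739) and 0.15 for tnni2a.4 (-0.19 to 0.50, adjusted p = 0.745). For M510F01 they were 0.00 (-0.33 to 0.33) and -0.11 (-0.47 to 0.24).

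The skeletal actin acta1b (LL0000000217), a building block of the thin filament, varied most between libraries of 1 group. It was at 10097, 11207, 12010 and 9746 in DMSO, at 10991, 11676, 11836 and 8230 with boscalid, and at 6824, 7802, 7693 and 14000 with M510F01. Of the M510F01 libraries, replicates 1 to 3 lay below every DMSO library and replicate 4 above every DMSO library. The estimate for M510F01 against DMSO was -0.30 (SE 0.20, interval -0.74 to 0.14, limma adjusted p = 0.9998). It was -0.53 without M510F01 replicate 4, -0.18 without M510F01 replicate 1, -0.55 with only replicates 1 and 2 of each group, and -0.06 with only replicates 3 and 4. No limma, edgeR or DESeq2 fit called it, with adjusted p-values from 0.31 to 1 over the alternatives. With boscalid it stood at -0.02 (-0.34 to 0.30).

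Ckma (LL0000005727), the cytosolic creatine kinase of muscle, was at 42811, 49659, 59603 and 46903 in DMSO. It was at 40481, 54709, 58845 and 55183 with boscalid and at 40657, 45432, 46501 and 54868 with M510F01. Replicate 1 was the lowest library of each group, and the groups overlapped. The estimates were 0.07 for boscalid (interval -0.29 to 0.43, limma adjusted p = 0.890) and -0.08 for M510F01 (-0.40 to 0.23).

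Over the 10 members the median log2 fold change was 0.02 for boscalid, with 6 positive and 4 negative, and -0.08 for M510F01, with 1 positive and 9 negative. With 1 library left out, the number of positive members ran from 4 to 9 for boscalid and from 0 to 4 for M510F01. The members moved together between libraries, so their signs are not independent of each other. Over all genes tested the medians were -0.00 and 0.00. The comparisons share their DMSO libraries. Leaving out DMSO replicate 1 moved the boscalid median to -0.015, and leaving out boscalid replicate 1 moved it to 0.088. For M510F01 it was -0.01 without DMSO replicate 3 and -0.17 without M510F01 replicate 4. In the authors' deposited tables the log2 fold changes of the members ran from -0.09 to 0.21 for boscalid and from -0.24 to 0.00 for M510F01, with smallest adjusted p-values of 0.858 and 0.999.

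Parent and metabolite were given at the same concentration and time and were compared directly, as M510F01 minus boscalid. The libraries are those also compared with DMSO, so this comparison is not independent of the others. All 10 estimates were negative with all libraries in the fit, with a median of -0.16 beside 0.00 over all genes tested, and none passed. Over the 12 libraries each member correlated with the mean of the others at 0.700 (acta1b) to 0.955 (tnni2a.4). The 10 signs are therefore not independent. Without M510F01 replicate 1, myhz1.1, myhz1.2 and myhz2 were positive, at 0.01 to 0.03, and without boscalid replicate 3, myhz2 and smyhc1 were positive. With all libraries the estimates were lowest, -0.28, for mylpfb (SE 0.19, interval -0.69 to 0.12, limma adjusted p = 0.842) and acta1b (-0.71 to 0.15). They were highest, -0.05, for smyhc1 (-0.32 to 0.22), myhz1.1, myhz1.2 and myhz2. Tnni2a.4 had the smallest unadjusted p of these tests, at -0.27 (interval -0.62 to 0.09, unadjusted p = 0.13, adjusted p = 0.842). The intervals leave room for M510F01 values down to 0.61-fold (acta1b) and up to 1.17-fold of the boscalid values. For smyhc1 the lower bound was 0.803-fold. The acta1b estimate was -0.63 with only replicates 1 and 2 and 0.07 with only replicates 3 and 4, and it was -0.51 without M510F01 replicate 4 and -0.16 without M510F01 replicate 1. In no pair of groups did any member separate without overlap. Among all genes the shares without overlap were 4.27% for boscalid and DMSO, 2.18% for M510F01 and DMSO, and 2.45% for M510F01 and boscalid.

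**Figure D2:**
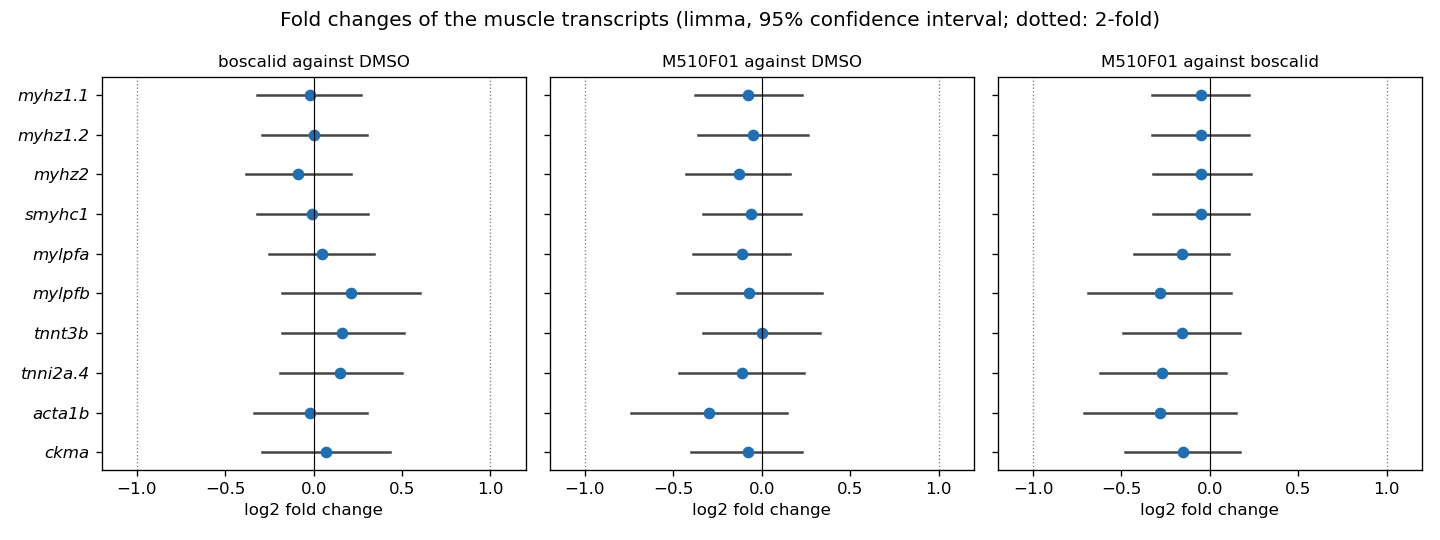
Log2 fold changes of the 10 muscle genes (points) with 95% confidence intervals (lines) from limma, for boscalid against DMSO, M510F01 against DMSO and M510F01 against boscalid; dotted lines mark a 2-fold change. Every interval includes 0 and stays inside the dotted lines, and all points of M510F01 against boscalid lie left of 0.

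Libraries of the same group also differed, and the members moved together there. All 10 members were highest of the DMSO libraries in replicate 3, all 10 highest of the boscalid libraries in replicate 3, and all 10 highest of the M510F01 libraries in replicate 4. Replicate 1 was the lowest for 8 members in DMSO, 7 with boscalid and 9 with M510F01. Among all 23131 genes with a mean of at least 10, replicate 1 was lowest for 26.9%, 35.9% and 30.1%. Among the 95 genes with a mean at least that of the lowest member, it was lowest for 68.4%, 69.5% and 64.2%. The boscalid count of 7 of 10 was thus near the share of these 95 genes. They include the members and other abundant muscle genes, such as ttn.1, neb, tpma and ckmb. Their share is therefore not that of abundant genes outside muscle. These libraries were picked out after their values were seen. Of all 23131 genes with a mean of at least 10, 30.7% were highest in DMSO replicate 3, 22.2% in boscalid replicate 3 and 31.2% in M510F01 replicate 4. Of the 95 genes with a mean at least that of the lowest member, the members included, the shares were 68.4%, 41.1% and 64.2%. The lists of muscle genes described below differed in these shares. They were 91.7% in each library for the energy list, and 78.9%, 68.4% and 84.2% for the fast sarcomere list. For the slow sarcomere list they were 86.7%, 46.7% and 73.3%, and for myogenic regulators 21.1%, 21.1% and 26.3%. The median deviation of the members from their group mean was 0.21 in DMSO replicate 3, 0.18 in boscalid replicate 3 and 0.23 in M510F01 replicate 4. It was -0.18, -0.21 and -0.22 in replicate 1 of DMSO, boscalid and M510F01. The group median changes were 0.02 and -0.08 against DMSO and -0.16 for M510F01 against boscalid. Deviations of single, picked libraries and differences between means of 4 libraries are unlike measures, so their sizes were not compared.

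The within-group SD on the log2 scale was smallest for myhz1.1, at 0.14, and largest for acta1b, at 0.31, followed by mylpfb at 0.29 and tnni2a.4 at 0.25. The median over the members was 0.18, beside 0.23 over all genes with a mean of at least 10 and 0.21 over the 95 most abundant genes. Within replicates 1 and 2 alone the median change of the members was 0.04 for boscalid and -0.10 for M510F01. Within replicates 3 and 4 alone it was 0.07 and -0.06. By the rule for likeness, the 5 genes whose profile over the 12 libraries was closest to the mean profile of the members were actn3a (Pearson r = 0.944), the tropomyosin tpma (0.940), tmem38a (0.937), ndufb8 (0.935) and myoz1b (0.931), out of 15229 candidates. Actn3a, an alpha-actinin, and myoz1b, a myozenin, belong to the Z disc, tmem38a is an ion channel of the sarcoplasmic reticulum, and ndufb8 is a subunit of respiratory complex I. The profiles share library, depth and scaling, so these correlations are given with no p.

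The giant protein genes ttn.1, ttn.2 and neb had another order of libraries. They were picked from the Z disc, M band and giant protein list with their values seen. Of the 27 genes of that list, 8 were highest in DMSO replicate 3, 11 in boscalid replicate 3 and 13 in M510F01 replicate 4. Ttn.1, which encodes titin, the molecular spring from Z disc to M band, was at 387870, 397800, 376158 and 368302 in DMSO. It was at 391161, 327980, 324591 and 235883 with boscalid and at 373438, 380661, 328201 and 296107 with M510F01. Its highest boscalid library was replicate 1, and its lowest was replicate 4. In boscalid replicate 1, 7 of the 10 members and 69.5% of the 95 most abundant genes were lowest. Neb, which encodes nebulin, the ruler of the thin filament, was at 60618, 51138, 44751 and 33264 with boscalid and at 57513, 60785, 48555 and 54013 in DMSO. In M510F01 replicate 4, where all 10 members were highest, ttn.1, ttn.2 and neb were each lowest of the group. RNA quality was not measured in the files, and its part in this order was not tested.

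**Figure D3:**
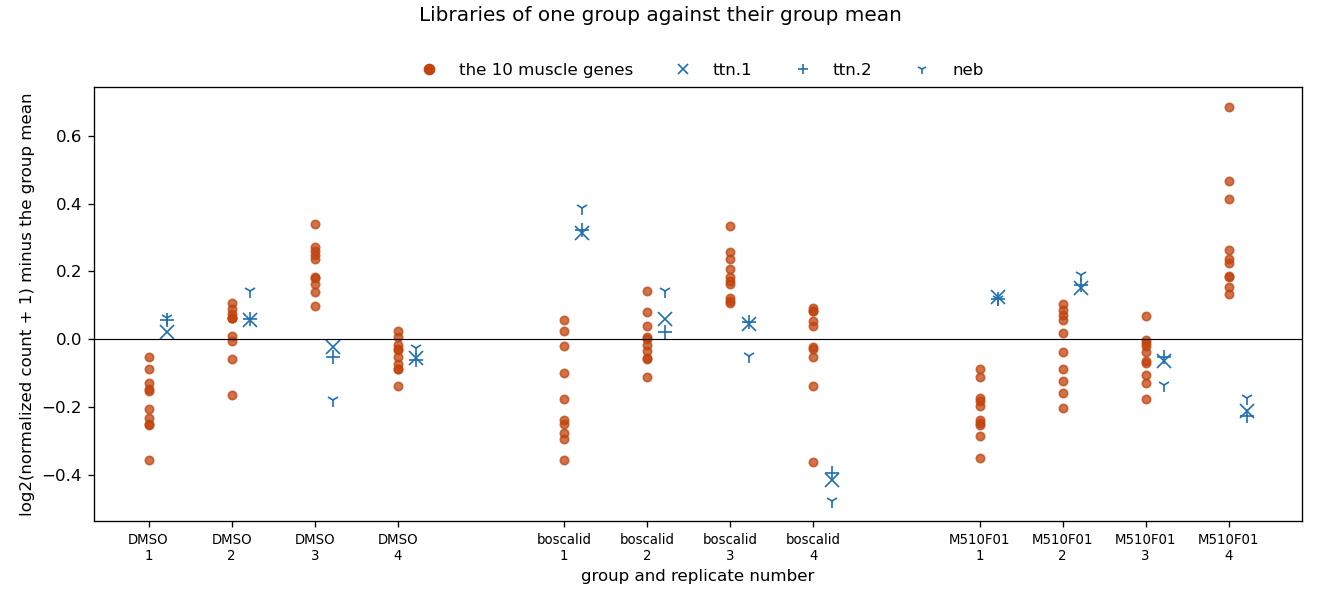
Log2(normalized count + 1) minus the mean of the group (vertical axis) in each library (horizontal axis) for the 10 muscle genes (filled circles) and for the titin genes ttn.1 and ttn.2 and nebulin neb (crosses). The circles are above 0 in DMSO replicate 3, boscalid replicate 3 and M510F01 replicate 4, and in M510F01 replicate 4 the crosses are below 0.

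Other muscle genes were examined as lists by role, matched by symbol. Genes of a list can move together between libraries, so counts of signs are not counts of independent results. With boscalid, 0 members of any list passed over all genes in the main limma fit or in edgeR. Pfkmb of the energy list passed in DESeq2. It also passed in limma with a replicate block and with replicates 1 and 2 against 3 and 4 as a term. In the fast sarcomere list of 19 measured genes, 16 were positive, with a median of 0.17. Its smallest p-values were those of mybpc2a, a fast myosin-binding protein C (0.29, interval 0.03 to 0.54, limma adjusted p = 0.65), and the troponin I gene tnni2b.2 (0.28, -0.06 to 0.63). In the slow sarcomere list 12 of 15 were positive, with a median of 0.13; the slow troponin T gene tnnt1 was at 0.24 (-0.08 to 0.57) and tnnc1b, a troponin C gene, at 0.26 (-0.12 to 0.64). Neither list had a call, and 1 of 19 and 0 of 15 genes had an unadjusted p under 0.05, beside 7.68% of all genes tested. Single libraries moved these medians: the fast median was 0.074 and the slow median 0.046 without DMSO replicate 1, and the slow median was 0.240 without boscalid replicate 1.

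The phosphagen and muscle energy list stood furthest from 0 with boscalid. Of its 12 genes 11 were positive, with a median of 0.23. An unadjusted p under 0.05 was found for 5, all 5 positive, beside 7.68% of all genes tested. In each group 11 of the 12 genes were highest in the library where the members were highest, so they are not independent. The list was chosen with earlier results of these data known. Leaving out DMSO replicate 1 gave a median of 0.144, and leaving out DMSO replicate 3 gave 0.331. Pfkmb, a muscle phosphofructokinase of glycolysis, was at 257, 287, 470 and 355 in DMSO, at 576, 520, 703 and 586 with boscalid, and at 351, 345, 309 and 504 with M510F01. All boscalid libraries lay above all DMSO libraries, and 4.27% of all genes tested had these groups apart in either direction. The estimate was 0.83 (SE 0.18, interval 0.43 to 1.23, limma adjusted p = 0.36), which did not pass. Whether pfkmb passed depended on the model: its adjusted p was 0.35 with edgeR, 0.021 with DESeq2 and 0.037 in limma with replicates 1 and 2 against 3 and 4 as a term, with estimates from 0.79 to 0.83. Pgam2, a muscle phosphoglycerate mutase of the same pathway, was at 1548 ± 342 in DMSO and 2130 ± 202 with boscalid (0.48, interval 0.14 to 0.82, adjusted p = 0.56). Of the creatine kinases, the mitochondrial ckmt2a had an estimate of 0.62 (limma adjusted p = 0.63) and ckmt2b of 0.31 (interval -0.04 to 0.65, adjusted p = 0.65), and the cytosolic ckma stood at 0.07 and ckmb at 0.09. Their differences were not tested.

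Other lists lay nearer to 0 with boscalid. An unadjusted limma p under 0.05 was found for 3 of 27 Z disc and 2 of 29 excitation and calcium genes. It was found for 0 of 19 myogenic regulators and 2 of 9 genes of the myosin assembly and chaperone list. That list also holds ubiquitin ligase genes, fbxo32 among them. The share of all genes tested was 7.68%. In the Z disc, M band and giant protein list 16 of 27 genes were negative, with a median of -0.06, and the smallest p-values were those of nrap, an actin-binding protein of forming myofibrils (-0.36, interval -0.62 to -0.11, adjusted p = 0.56), and obscna, an obscurin (-0.37, -0.67 to -0.07). In the excitation and calcium list 15 of 29 were positive, with a median of 0.02. Musk, the receptor kinase that gathers acetylcholine receptors under the nerve ending, was at 400, 332, 339 and 277 in DMSO, at 255, 247, 232 and 269 with boscalid and at 379, 358, 316 and 295 with M510F01. All boscalid libraries lay below all others, and the estimate against DMSO was -0.42 (interval -0.69 to -0.14, limma adjusted p = 0.54), which did not pass. Of all genes tested, 4.27% had boscalid and DMSO libraries without overlap in either direction, and 2.45% had M510F01 and boscalid libraries so. Both shares use the same boscalid libraries, and the share apart from both groups was not counted. Musk was named for the smallest p of its list, which favours groups that lie apart. The ryanodine receptor gene ryr3, a calcium release channel, was at -0.33 (-0.66 to -0.01). In the myosin assembly and chaperone list 7 of 9 were negative (median -0.09), with the ubiquitin ligase gene fbxo32 at -0.42 (-0.76 to -0.09) and the myosin assembly factor smyd1a at 0.38 (0.02 to 0.74). Among myogenic regulators 14 of 19 were negative (median -0.10), with prdm1a, which directs slow fibre fate, at -0.38 (-0.81 to 0.04) and pax3b, a factor of muscle progenitors, at -0.28 (-0.60 to 0.04).

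With M510F01, 0 members of any list passed by limma, edgeR or DESeq2, and the list medians against DMSO lay between -0.12 and 0.02. An unadjusted limma p under 0.05 was found for 1 fast sarcomere, 1 slow sarcomere, 1 Z disc and 2 excitation and calcium genes. It was found for 0 genes of the other muscle lists, beside 3.61% of all genes tested. With 1 library left out, the medians of the fast, slow, energy and myogenic lists took either sign, between -0.134 and 0.106. In the fast sarcomere list 13 of 19 were negative (median -0.055), with mybpc2a at 0.29 (interval 0.03 to 0.54) and the light chain mylz3 at -0.22 (-0.51 to 0.07). In the slow sarcomere list 10 of 15 were negative (median -0.04), with the troponin T genes tnnt2c at -0.58 (-1.10 to -0.06) and tnnt2e at -0.23 (-0.49 to 0.03). In the Z disc list 22 of 27 were negative (median -0.095), with desma, the intermediate filament desmin, at -0.43 (-0.74 to -0.12) and the filamin flncb at -0.27 (-0.57 to 0.02). In the excitation and calcium list 26 of 29 were negative (median -0.12), with the acetylcholine receptor subunits chrna1 at -0.33 (-0.59 to -0.07) and chrng at -0.60 (-1.11 to -0.09). In the phosphagen and energy list 7 of 12 were positive (median 0.02), with myoglobin mb at -0.32 (-0.69 to 0.05) and ckmb at -0.13 (-0.42 to 0.16). Of the 9 genes of the myosin assembly and chaperone list 5 were negative (median -0.01), and of the 19 myogenic regulators 12 (median -0.04). The assembly factor unc45b was at -0.33 (-0.69 to 0.03), the heat shock gene hspb1 at -0.52 (-1.11 to 0.08), and the regulators six1a and mef2cb at -0.23 (-0.47 to 0.01) and -0.14 (-0.33 to 0.06).

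**Figure D4:**
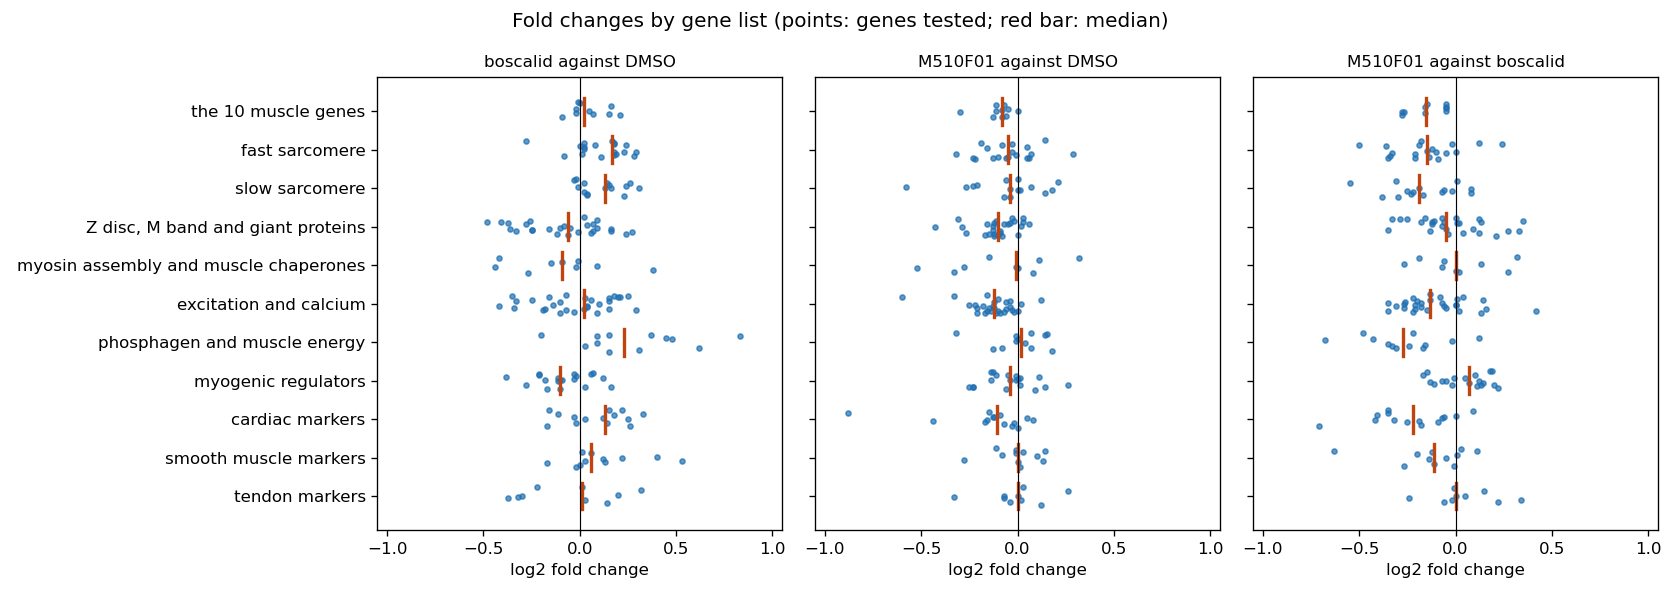
Log2 fold changes of all genes tested in each muscle, cardiac, smooth muscle and tendon list (points, spread vertically for legibility) with the list's median (vertical bar), for the 3 comparisons. The phosphagen and energy list has the highest median with boscalid, 0.23, and the lowest in M510F01 against boscalid, -0.27. Both medians rest on the same boscalid libraries and are not separate results. The list's median for M510F01 against DMSO was 0.02.

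Between the compounds, M510F01 minus boscalid, no list member passed. The boscalid libraries are the same as in boscalid against DMSO, so a gene that stood out in both comparisons is not a second, independent result. An unadjusted limma p under 0.05 was found for 4 of 19 fast sarcomere, 1 of 15 slow sarcomere and 3 of 12 energy genes. It was found for 2 of 27 Z disc and 3 of 29 excitation and calcium genes. In the myosin assembly and chaperone list and among myogenic regulators it was found for 0, and the share of all genes tested was 4.60%. In the fast sarcomere list 17 of 19 were negative (median -0.15), with mybpc2b at -0.35 (-0.63 to -0.07) and the troponin C gene tnnc2 at -0.33 (-0.64 to -0.02). In the slow list 12 of 15 were negative (median -0.19), with tnnt2e at -0.38 (-0.72 to -0.04) and tnnc1b at -0.30 (-0.66 to 0.07). In the phosphagen and energy list 11 of 12 were negative (median -0.27), with pfkmb at -0.68 (SE 0.19, -1.08 to -0.27, limma adjusted p = 0.84) and pgam2 at -0.48 (-0.84 to -0.12). Negative were also 15 of 27 Z disc genes (median -0.055), 5 of 9 genes of the myosin assembly and chaperone list (median -0.00), 22 of 29 excitation and calcium genes (median -0.13) and 8 of 19 myogenic regulators (median 0.07). Leaving out a single library turned the Z disc median to 0.006 (M510F01 replicate 3) and the chaperone median to 0.077 (boscalid replicate 3). Musk was at 0.42 (0.16 to 0.68) and hhatla at -0.27 (-0.53 to -0.01). Myoz1a was at -0.33 (-0.59 to -0.07), nrap at 0.27 (0.05 to 0.50), fbxo32 at 0.27 (-0.03 to 0.57), smyd1a at -0.27 (-0.61 to 0.07), myod1 at -0.17 (-0.43 to 0.08) and six1a at -0.13 (-0.35 to 0.08).

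A whole larva also holds heart, smooth muscle and tendon, and their markers were detected. Summed over 15 cardiac markers, libraries ran from 5963 to 6981 normalized counts in DMSO, from 6467 to 7277 with boscalid and from 5274 to 6382 with M510F01. Of the 14 cardiac markers tested 9 were positive with boscalid (median 0.13, and 0.017 without DMSO replicate 4) and 11 negative with M510F01 (median -0.10), with 0 calls. Actc1a, a cardiac actin gene, was at 0.25 with boscalid (interval 0.04 to 0.47) and -0.41 in M510F01 against boscalid (-0.63 to -0.19, limma adjusted p = 0.84). The natriuretic peptide gene nppb was at -0.88 with M510F01 (-1.58 to -0.19) and did not pass. Its values were low, 10, 23, 20 and 23 in DMSO and 7, 12, 9 and 10 with M510F01. Of the 14 cardiac markers, 1 with boscalid, 1 with M510F01 and 2 between the compounds had an unadjusted limma p under 0.05. The shares of all genes tested were 7.68%, 3.61% and 4.60%. Summed over 11 smooth muscle markers, libraries ran from 6423 to 8357 in DMSO, from 6984 to 8140 with boscalid and from 6617 to 7689 with M510F01, with list medians against DMSO of 0.06 and 0.00. Summed over 9 tendon markers they ran from 11562 to 18022, from 9281 to 19785 and from 12323 to 17697, with medians of 0.01 and -0.00. The collagen gene col1a2 set much of these ranges. It was at 12170 in DMSO replicate 1, at 13773 in boscalid replicate 1 and at 4041 in boscalid replicate 4. Of these 2 lists, 0 genes passed in any comparison by limma. An unadjusted limma p under 0.05 was found for egr1 of the tendon list with M510F01 (-0.33, interval -0.65 to -0.00). It was also found for cnn1a of the smooth muscle list in M510F01 against boscalid (-0.63, -1.19 to -0.07). The part of these tissues in the values of the 10 members was not tested.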

How the data were processed

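Per the labels, stranded total RNA libraries with ribosomal RNA removed were read from both ends. Among tools, the submitters' processing notes list DESeq2, STAR, featureCounts, cutadapt and FastQC. Their versions, the build and the strand setting: not given in the sources used here. The authors deposited signal per gene as normalized counts, 1 table per compound, each with its own scaling. The authors also deposited log2 fold changes, their standard errors and test statistics (a score per gene) and p-values.

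Reads were recovered from the steps of the values (100% whole within 0.01 reads), and the DMSO libraries gave equal reads from either table. Replicates of a group differed beyond sampling noise (chi-square per gene from 5.12 to 38.7). Levels use median-of-ratios scaling of the 12 libraries together. Each compound was tested against DMSO within its own table, and M510F01 against boscalid in a joint fit, with limma 3.58.1 (R 4.3.3; trend, robust) on log2(normalized count + 1) for genes with a mean of at least 10, adjusted by Benjamini-Hochberg over all genes tested. Fold changes are on that scale. EdgeR 4.0.16 and DESeq2 1.42.0 on the recovered reads were alternatives. The limma step was also run on simulated counts with known changes, and the outcome is not reported here. Genes were drawn independently there, so shifts that genes share within a library were not simulated. Python 3.11.15, pandas 2.3.3 and matplotlib 3.10.9 were used.

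The members and lists were chosen with earlier results of these data known. The 10 members were always named, with the 2 genes of smallest p per muscle list and comparison. So were the 5 genes most like the members among those with a mean of at least 50. Of the cardiac, smooth muscle and tendon lists only some of the genes with the smallest p were named. Ttn.1, ttn.2, neb, ckmt2a, ckmt2b, col1a2 and, for boscalid, ckmb were named outside this rule, with their values known. Among the list genes, tnnc2.1, tnnc2.2, myom2b, myom3, dok7a, dok7b, mymx and vmhc matched no symbol, and tnni1a and bmp10 fell below the filter. Same-numbered libraries of different groups had correlations of their deviations from -0.024 to 0.510. Those between replicate 1 libraries were 0.506, 0.482 and 0.510. No source used here says that the numbers pair libraries, so the main fit did not pair them. A replicate block was run as an alternative, and whether same-numbered libraries shared an origin was not tested.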

Additional observations from a re-analysis of the deposited data

Results flagged for a closer look

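The skeletal actin gene acta1b in M510F01 replicate 4 stood far from the other libraries of its group. Its value was 14000 normalized counts, while M510F01 replicates 1 to 3 were at 6824, 7802 and 7693. The gap to the nearest library was 0.864 of the range of the group, above Dixon's 95% critical value for 4 samples. It was the only such value among 30 groups of values examined (10 genes in 3 groups), and chance flags about 5% of groups.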

How the results depend on the processing

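No member passed the threshold in any of the alternatives run, 22 for each compound against DMSO and 25 for M510F01 against boscalid. Over the alternatives the median change of the members ran from -0.015 to 0.088 for boscalid and from -0.165 to -0.011 for M510F01. For M510F01 against boscalid it ran from -0.245 to -0.082. In every alternative it stayed within 0.17 on the log2 scale, the SD between libraries of a group, of its reported value. That limit is larger than each reported median, so staying within it does not show stability, and the boscalid median took either sign. The count of all genes called depended on the setting. For boscalid it was 4, and 92 with DESeq2, 90 with a replicate block, 19 with replicates 1 and 2 against 3 and 4 as a term, 0 with only replicates 3 and 4, 9 in the joint fit, and from 2 to 8 with 1 library left out. For M510F01 it was 0, and 1 with the replicate block, 4 with only replicates 1 and 2 and 1 with only replicates 3 and 4. For M510F01 against boscalid it was 3, and 20 with DESeq2, 8 with the replicate block and 5 with the term. The cause was not tested. The replicate block called no member, though mylpfb with boscalid and tnni2a.4 in M510F01 against boscalid then had an unadjusted p under 0.05. With the term, tnni2a.4 in M510F01 against boscalid did too. With only replicates 1 and 2, acta1b did in both M510F01 comparisons. Pfkmb, with a limma adjusted p of 0.36 for boscalid, passed with DESeq2 (0.021), the replicate block (0.011) and the term (0.037), and in the remaining alternatives its adjusted p ran from 0.11 to 0.91. No other list gene passed in any setting. With the replicate block, 20% of all genes had an unadjusted p under 0.05 for boscalid, 5.58% for M510F01 and 14.1% for M510F01 against boscalid. As for pairing, of 24 comparisons of a library with the 4 libraries of another group, 12 correlated best with the library of its own number. By chance 1 in 4 would. Every replicate 1 library did so in each comparison, and replicates 2 to 4 did so in only some. Counts per member were high, so the number of libraries and the spread between them, not depth, limit these results.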
